A study of Mus musculus with 4 samples.

Results

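Peaks of the histone mark H3K4me3 that lay near genes but not at their starts were described in adult mouse hippocampus. A flanking peak is a peak of the replicated list whose nearest edge was more than 1 kb and at most 10 kb from the closest transcription start site of any gene type in GENCODE release M21. By this rule 4878 of 27063 peaks were flanking peaks (18.02%). Another 17645 peaks (65.2%) reached to within 1 kb of a start site and are called start-site peaks, and 4540 lay more than 10 kb away. The gene of the closest start site is called the parent gene.

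Chromatin immunoprecipitation followed by sequencing was run on hippocampus of male B6CASTF1/J mice aged 2 months, a first-generation hybrid of the C57BL/6J and CAST/EiJ strains. No treatment or second genotype was named. Tissue was pooled, 7 samples to a pool, and pool D stands as biological replicate 1 and pool C as biological replicate 2. From each pool 2 technical libraries were made, 4 in all. Each pool gave 1 peak list, so the technical replicates could not be compared, and the spread between the lists of the 2 pools is the only measure of error. The labels call the tissue a layer of hippocampus and name no particular layer.

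H3K4me3 is trimethylation of lysine 4 on histone H3. It is deposited by the SET1 and MLL complexes, partly recruited to CpG-rich DNA through zinc finger domains that bind unmethylated CpG, and it is removed by KDM5 demethylases. It is strongest on the nucleosomes beside the starts of active genes. In neural tissue it can extend over several nucleosomes into the body of genes that define a cell type.

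Start-site peaks were present at all 5 markers of hippocampal excitatory neurons, all 3 of interneurons, all 4 of astrocytes, all 4 of oligodendrocytes and all 3 of endothelium. Of 4 microglial markers, P2ry12 and Csf1r had one and Cx3cr1 and Aif1 did not. None of 3 liver markers had one, and of 3 striated muscle markers only Ckm did. In whole tissue, a mark in few cells and a weak mark in many cells cannot be told apart. The files give no sequencing depth. The pool D list held 4212 flanking peaks (17.1% of its peaks) and the pool C list 7914 (23.1%), and the part of depth in this gap was not tested.

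Summit sequences are shown for flanking peaks because CpG content separated their classes below. They were taken from standalone flanking peaks with a named protein-coding parent, with windows outside untranslated regions and RefSeq mRNA exons. Windows on 1 chromosome were left out. On each side these are the 2 of highest signal that qualified and 1 more. That one had the lowest CpG content of the windows kept among the 20 of highest signal on its side. The 300 bases around the summit are given on the reference plus strand of GRCm38 (mm10), from the RefSeq genome, with CpG pairs in capitals. This is the reference strain's sequence, and the CAST/EiJ allele of these hybrids was not seen. The upstream windows, each named by the parent gene, hold 20, 17 and 5 CpG pairs.
Psma3 chr12:70968345-70968644 (+): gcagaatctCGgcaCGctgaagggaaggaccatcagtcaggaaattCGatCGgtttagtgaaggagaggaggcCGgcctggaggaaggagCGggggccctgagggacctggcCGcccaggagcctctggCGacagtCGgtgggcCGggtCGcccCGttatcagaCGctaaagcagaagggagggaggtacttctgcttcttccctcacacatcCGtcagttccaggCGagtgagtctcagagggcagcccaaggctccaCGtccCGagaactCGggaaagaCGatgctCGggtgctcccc
Shf chr2:122375930-122376229 (+): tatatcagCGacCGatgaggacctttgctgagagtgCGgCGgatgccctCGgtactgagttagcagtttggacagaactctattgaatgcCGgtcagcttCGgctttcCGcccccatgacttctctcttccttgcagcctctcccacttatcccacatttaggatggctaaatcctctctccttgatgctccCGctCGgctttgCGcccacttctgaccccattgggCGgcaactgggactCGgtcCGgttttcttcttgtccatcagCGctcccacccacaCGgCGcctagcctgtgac
Prr14l chr5:32857755-32858054 (+): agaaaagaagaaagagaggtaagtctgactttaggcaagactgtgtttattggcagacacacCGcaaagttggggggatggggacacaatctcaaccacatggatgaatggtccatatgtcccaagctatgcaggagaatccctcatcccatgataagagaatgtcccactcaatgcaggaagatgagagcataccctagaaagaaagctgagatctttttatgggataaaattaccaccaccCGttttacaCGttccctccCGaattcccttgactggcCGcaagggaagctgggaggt
The downstream windows hold 13, 13 and 11 CpG pairs.
Olfr750 chr14:51063539-51063838 (+): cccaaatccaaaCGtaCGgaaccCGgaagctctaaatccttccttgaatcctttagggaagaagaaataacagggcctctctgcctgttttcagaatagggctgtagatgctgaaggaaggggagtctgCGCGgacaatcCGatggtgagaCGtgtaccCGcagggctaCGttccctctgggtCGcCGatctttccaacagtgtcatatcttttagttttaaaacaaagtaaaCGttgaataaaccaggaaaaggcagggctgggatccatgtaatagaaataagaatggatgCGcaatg
Dhx37 chr5:125405781-125406080 (+): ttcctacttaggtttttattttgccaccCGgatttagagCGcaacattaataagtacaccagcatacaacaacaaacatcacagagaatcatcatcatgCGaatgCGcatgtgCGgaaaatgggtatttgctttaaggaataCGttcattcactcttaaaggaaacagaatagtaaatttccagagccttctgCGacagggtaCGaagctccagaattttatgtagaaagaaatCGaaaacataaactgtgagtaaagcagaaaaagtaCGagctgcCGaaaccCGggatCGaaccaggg
Fbxl22 chr9:66512044-66512343 (+): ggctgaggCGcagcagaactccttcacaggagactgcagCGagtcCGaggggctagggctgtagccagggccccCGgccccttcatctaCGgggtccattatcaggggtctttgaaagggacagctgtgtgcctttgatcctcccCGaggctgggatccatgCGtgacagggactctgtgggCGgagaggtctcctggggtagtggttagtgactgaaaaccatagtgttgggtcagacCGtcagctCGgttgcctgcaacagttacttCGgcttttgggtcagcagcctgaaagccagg
The CpG ratio, which is the number of CpG pairs over the number expected from the C and G content, was 0.688 for Psma3, 0.732 for Shf, 0.303 for Prr14l, 0.791 for Olfr750, 1.05 for Dhx37 and 0.420 for Fbxl22. All but Prr14l and Fbxl22 were above 0.6. The window of the Pura peak, which was left out, had a ratio of 0.351, below that of Fbxl22.

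All but the Prr14l and Fbxl22 peaks also hold transfer RNA (tRNA) genes, which RNA polymerase III transcribes from an internal promoter of an A box and a B box. One tRNA gene from each peak is shown on its own strand, 5′ to 3′, with the B box core GTTCGANNC in capitals.
n-TKctt17 chr12:70969120-70969192 (-): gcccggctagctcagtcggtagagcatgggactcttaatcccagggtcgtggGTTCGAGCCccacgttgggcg
n-THgtg4 chr2:122375494-122375565 (-): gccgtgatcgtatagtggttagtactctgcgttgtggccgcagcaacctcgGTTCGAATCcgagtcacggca
n-TLaag8 chr14:51063883-51063964 (+): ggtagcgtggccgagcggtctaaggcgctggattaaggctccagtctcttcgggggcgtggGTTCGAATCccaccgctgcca
n-TAtgc10 chr5:125404250-125404321 (-): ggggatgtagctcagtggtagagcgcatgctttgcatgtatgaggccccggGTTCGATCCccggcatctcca
The first lies in the Psma3 peak and codes for a lysine tRNA, the second in the Shf peak (histidine), the third in the Olfr750 peak (leucine) and the fourth in the Dhx37 peak (alanine). The core motif, searched on the tRNA's own strand, was found in 250 of the 403 tRNA genes of RefSeq on the 21 chromosomes (62.0%).

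Flanking peaks were small and weak. Their median width was 587 bp (quartiles 389 to 904) against 1763 bp for start-site peaks and 557 bp for peaks beyond 10 kb. The single-pool lists both had a median of 519 bp. Flanking peaks covered 3.57 Mb, 8.61% of the bases under all replicated peaks. Their median signal value, the authors' enrichment score of a peak, was 4.205, against 19.1 for start-site peaks and 4.41 beyond 10 kb. In width and signal they resembled the distant peaks more than the start-site peaks. The bounds marked no step. At the near bound, 141 peaks lay 901 to 1000 bp away (median width 553 bp) and 125 lay 1001 to 1100 bp away (577 bp), and at the far bound the counts were 33 at 9901 to 10000 bp and 32 at 10001 to 10100 bp.

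More flanking peaks lay downstream of their nearest start site, that is on its transcribed side, than upstream. In the replicated list 2961 were downstream and 1917 upstream (60.7% downstream). The downstream share was 63.8% in pool D and 61.6% in pool C, 62.7% ± 1.60 (SD, n = 2 pools). Of all genome bases 1 to 10 kb from a start site, 51.6% lay downstream of it, and both pools were above that share. Per Mb of such sequence, 6.89 flanking peaks lay downstream and 4.75 upstream, a ratio of 1.45. The ratio was 1.66 in pool D and 1.51 in pool C.

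Over all flanking peaks together, the downstream excess was steepest close to the start and faded with distance. Downstream peaks made up 66.6% of the 1121 flanking peaks at 1 to 2 kb, 62.7% at 2 to 3 kb, 61.0% at 3 to 5 kb and 55.4% at 5 to 10 kb. The downstream share of bases was between 51.1% and 51.8% in every bin. In pool D the shares were 69.9%, 68.6%, 63.3% and 55.5%, and in pool C 64.1%, 64.7%, 62.6% and 57.6%. Both pools therefore had their lowest downstream share in the farthest bin.

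**Figure D1:**
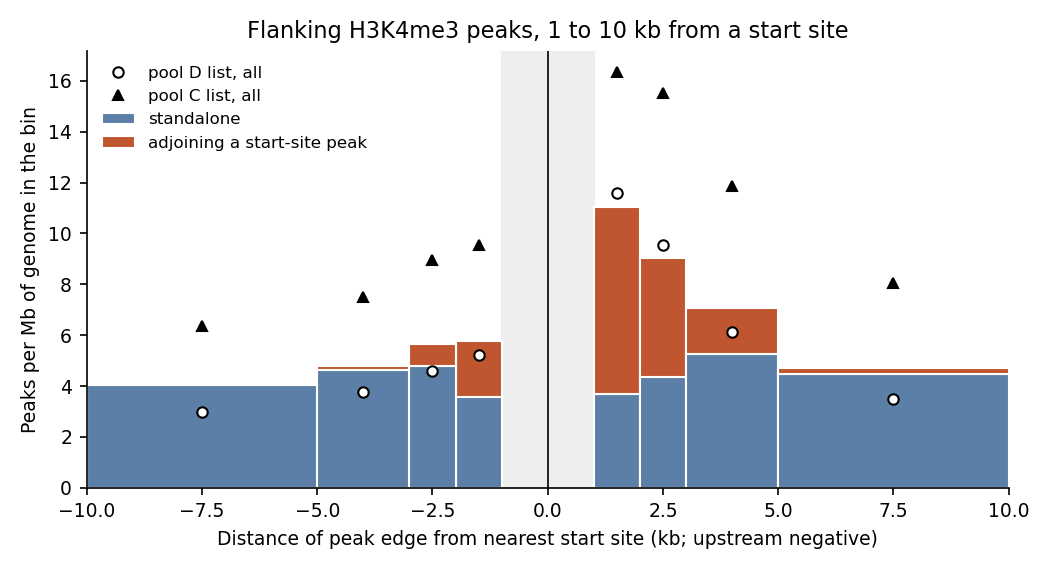
Flanking peaks per Mb of genome, by distance of the peak edge from the nearest start site in kb (upstream negative, downstream positive). Bars give the replicated list, split into peaks that adjoin a start-site peak and peaks that stand alone; circles and triangles give all flanking peaks of the pool D and pool C lists, and the grey band is the 1 kb left to start-site peaks. Over 1 to 10 kb, standalone peaks are slightly denser downstream, at 4.52 per Mb against 4.22 upstream, while the adjoining ones pile up downstream. At 2 to 3 kb standalone peaks of the replicated list are denser upstream, at 4.80 per Mb against 4.37 downstream.

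Most of the excess lay in peaks that adjoined a start-site peak, taken as a gap of at most 1 kb between their edges. There were 1229 adjoining peaks (25.2% of flanking peaks), and 1016 of them were downstream (82.7%). Of downstream flanking peaks 34.3% were adjoining (41.9% in pool D, 34.4% in pool C), against 11.1% of upstream ones (14.8% and 12.99%). The difference between the sides was 24.3 ± 4.03 percentage points (SD, n = 2 pools), several times the spread between the pools. The remaining 3649 peaks stood alone, with 1945 downstream and 1704 upstream (53.3% downstream, 54.6% in pool D and 54.7% in pool C). These shares were above the 51.6% of bases in both pools, but by far less than the 82.7% of adjoining peaks. Per Mb the downstream to upstream ratio was 1.07 for standalone peaks (1.13 in pool D, 1.14 in pool C). For adjoining peaks it was 4.48 (4.70 in pool D, 3.99 in pool C). The fading with distance was not seen in standalone peaks. Their downstream shares from the nearest to the farthest bin were 51.9%, 49.0%, 54.7% and 54.3%. In pool D they were 53.2%, 52.3%, 56.2% and 54.9%, and in pool C 50.6%, 51.1%, 55.9% and 56.3%.

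Adjoining peaks were split from their neighbour by short gaps. The median gap was 207 bp (quartiles 128 to 425) and the smallest 77 bp. The start-site peaks next to them had a median width of 2760 bp, against 1763 bp over all start-site peaks. When all peaks separated by at most 1 kb were joined before the rule was applied, 3279 flanking peaks were left and 52.3% of them were downstream. The share downstream thus depended on whether pieces beside a start-site peak were counted as peaks of their own.

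Adjoining and standalone peaks lay in different parts of genes. The summit was in the first intron of the transcript with the nearest start for 753 of 1016 downstream adjoining peaks (74.1%) and for 657 of 1945 downstream standalone peaks (33.8%). A later exon held 25 of the former and 170 of the latter. Of the 1917 upstream flanking peaks, 967 lay between genes (50.4%), 489 inside a gene other than the parent and 461 inside the limits of the parent gene itself, upstream of one of its internal starts. For this last set, upstream of the nearest start is also downstream of the gene's first one.

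Sequence composition differed between the same classes. Within 300 bases around the summit the median CpG ratio was 0.231 (quartiles 0.137 to 0.359) in downstream adjoining peaks and 0.275 in upstream adjoining ones. It was 0.456 in downstream and 0.465 in upstream standalone peaks, 0.466 beyond 10 kb and 0.730 in start-site peaks. Standalone flanking peaks thus had about the ratio of distant peaks, and adjoining ones a lower one. Over all flanking peaks the median was 0.402 in the pool D list and 0.360 in the pool C list.

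Motif matches were searched on both strands of the same windows as exact letters. The GC box GGGCGG, bound by SP and KLF factors, was in 6.59% of downstream adjoining, 14.6% of upstream adjoining, 20.0% of downstream standalone and 21.7% of upstream standalone windows. It was in 36.3% of all peaks, 46.6% of start-site peaks and 16.1% of peaks beyond 10 kb. The AP-1 site TGANTCA, bound by FOS and JUN dimers, was in 7.995% of flanking peaks, 3.85% of start-site peaks, 8.13% of peaks beyond 10 kb and 5.32% of all peaks. The E-box CAGATG of NEUROD factors was in 20.3%, 12.6%, 23.6% and 15.8% of the same sets. The MEF2 site was in 3.94% of flanking peaks (2.84% of all peaks) and the ETS site CCGGAAG in 3.79% (5.95%). The CREB site TGACGTCA was in 25 flanking peaks (0.513%, against 0.632% of all peaks). The NRF1 site was in 11 (0.226% against 0.273%) and the CTCF core in 12 (0.246% against 0.107%). Matches of different motifs may share bases. For the AP-1 and E-box letters flanking peaks were thus near the distant peaks.

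**Figure D2:**
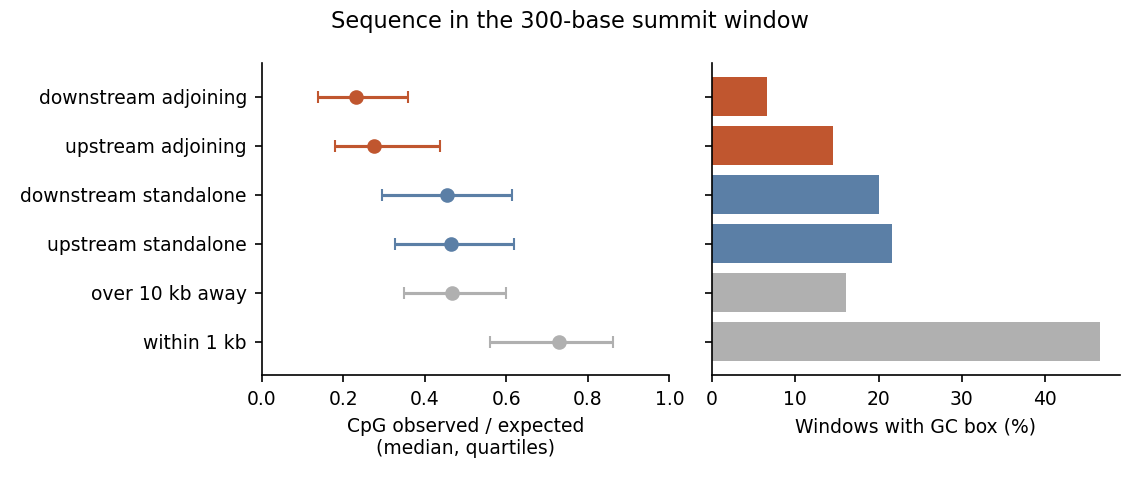
Left, CpG ratio in the 300-base summit window (observed over expected pairs), as the median with quartiles over the peaks of each class; right, percent of windows with the GC box. Flanking classes are in colour and the distant and start-site peaks in grey. Adjoining peaks have the lowest CpG ratio (0.231 and 0.275) and start-site peaks the highest (0.730).

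Standalone peaks were also split by CpG ratio. Of the 3649, 989 (27.1%) had a ratio of at least 0.6 and are called CpG-rich. This share was near the 24.9% of peaks beyond 10 kb, where all peaks gave 54.1%. The median signal of the 989 was 6.89 against 4.07 for the other standalone peaks, and their median width 748 bp against 536 bp. Pool D held 84.6% of the former and 61.1% of the latter. A RefSeq start, tRNA genes included, where GENCODE M21 lists none was within 1 kb of 17.2% of the CpG-rich and 9.96% of the other standalone peaks. Over all flanking peaks this was so for 534 (10.9%), near the 9.30% of peaks beyond 10 kb, but only for 70 with a curated RefSeq record. It was more frequent upstream (14.1%) than downstream (8.92%).

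Recurrence in the single-pool lists was lower than for start-site peaks. An overlap of at least 1 bp with a pool D peak was found for 64.8% of flanking peaks, where all replicated peaks gave 84.2%, and with a pool C peak for 95.2%, where all gave 97.9%. Start-site peaks gave 94.2% and 99.4%, and peaks beyond 10 kb 66.3% and 95.2%. There were 1521 flanking peaks found in pool C and not in pool D, 41 in pool D and not in pool C, and 195 in neither. The replicated list was made from both pools, so these shares are no independent check.

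Recurrence followed the strength of the peak. For 4667 flanking peaks the ends and signal were those of the list called on both pools, so signal and recurrence were not independent. From the weakest to the strongest quartile of signal, the share found in pool D was 23.5%, 49.5%, 86.4% and 99.8%, and the share found in pool C 83.4%, 97.3%, 100% and 100%. The weakest quartile was 66.5% downstream and 35.0% adjoining, and the strongest 52.1% and 12.05%. The median CpG ratio went from 0.280 to 0.571. The strongest flanking peaks were therefore about evenly placed on both sides, mostly standalone and CpG-richer, and nearly all were in both pools.

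**Figure D3:**
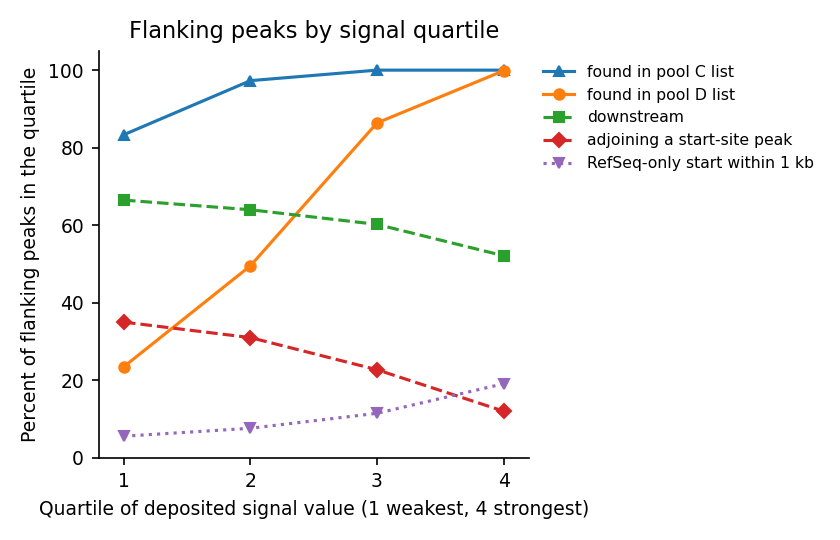
Percent of flanking peaks found in each pool list, downstream, adjoining, or with a RefSeq start that GENCODE does not list within 1 kb, in each quartile of the deposited signal value of the replicated list. The share found in pool D goes from 23.5% to 99.8%, while the downstream and adjoining shares are lowest in the strongest quartile.

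The strongest upstream peaks with a named protein-coding parent were those of Psma3, Zfp575, Shf, Kdm5b and Elovl5, and all 5 stood alone. Here and below, a width in a pool is that of a pool peak that met the flanking peak, and the same pool peak can meet several flanking peaks. The Psma3 peak (chr12:70967761-70970346, mm10), upstream of a proteasome subunit gene, spanned 2463 bp in pool D, 2639 bp in pool C (2551 ± 124, SD, n = 2 pools) and lay 4.28 kb from the GENCODE start. It contained a predicted RefSeq start of Psma3. The Zfp575 peak (chr7:24593403-24594757) was 1295 and 1365 bp wide, lay 5.76 kb away, and contained the curated RefSeq start of Ethe1, a mitochondrial sulfur dioxygenase gene. The Kdm5b peak (chr1:134555962-134557425), 2.75 kb upstream of the gene of an H3K4 demethylase, was 1504 and 1525 bp wide. In these 3 the pool widths differed by under 200 bp. The Elovl5 peak (chr9:77909760-77911829), by a fatty acid elongase gene, was 2049 and 2126 bp wide at 5.54 kb, and the Shf peak (chr2:122374568-122376739) 2130 and 2183 bp at 5.41 kb. The Shf peak contained the curated RefSeq start of the long noncoding RNA gene Gm39918. All 5 parents also had a start-site peak.

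With the same limit to named protein-coding parents, the strongest downstream peaks were those of Pura, Olfr750, Synpo2l, Nup160 and Sf3b5. The strongest flanking peak of all, with a signal of 34.3, had the small nuclear RNA gene Gm26110 as its parent (8480 bp downstream). This peak held the starts of 3 RefSeq tRNA genes. The Pura peak, in the first intron of a gene for a nucleic acid binding protein, was 3098 bp wide in pool D against 4478 bp in pool C, the widest spread of the 10. It contained a predicted RefSeq start of Pura. The Olfr750 peak (chr14:51062725-51066504) was 3748 and 4237 bp and lay 4.94 kb from the olfactory receptor gene's start, between genes. Synpo2l, Nup160 and Sf3b5 had no start-site peak of their own. The Sf3b5 peak (chr10:13007895-13009477, 1550 and 1720 bp), 2.55 kb downstream of the GENCODE start of this spliceosome subunit gene, contained its curated RefSeq start. The Nup160 peak (chr2:90678619-90680188, 1542 and 1599 bp) was 1.40 kb inside a nuclear pore subunit gene, in a later intron. The Synpo2l peak (chr14:20660659-20662516, 1700 and 1877 bp) was in a later exon, 2.06 kb from the GENCODE start and 857 bp from a predicted RefSeq start of Synpo2l. Fbxl22 (1833 and 2095 bp, first intron) and Gpx6 (1581 and 1745 bp, 8.91 kb away, between genes) were the next strongest without a start-site peak at the parent.

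Several of these peaks held tRNA genes, a pattern looked at after the strongest peaks had been seen. RefSeq tRNA starts lay inside 55 flanking peaks and within 1 kb of 69 (1.41%), against 0.351% of start-site peaks and 0.705% of peaks beyond 10 kb. Of the 20 strongest flanking peaks 7 had one, and of the 100 strongest 20. The median of these 69 was 1524 bp in width and 14.5 in signal, where the other flanking peaks had 584 bp and 4.15. Pool D held 66 of them and pool C all 69. Their median CpG ratio was 0.700, against 0.401 for the others, and 41 were upstream and 28 downstream of a GENCODE start. On chromosome 13 lay 29 of the 69, Gpx6 among the parents there.

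Looked at by tRNA gene, 91 of 403 (22.6%) had their start inside a flanking peak, 82 in the pool D list and 95 in the pool C list. Start-site peaks held 77 and peaks beyond 10 kb 41, so that 209 (51.9%) lay in some replicated peak. The peak of Olfr750 held 3 tRNA genes, n-TLaag8, n-TPagg4 and n-TTtgt3, and that of Dhx37, the gene of an RNA helicase, held n-TAtgc10, n-TDgtc15 and n-TFgaa7. The nearest GENCODE gene is thus the parent by distance only. Many tRNA genes have near-identical copies, and the part of reads that map to several of them was not tested. Without the peaks at tRNA genes the downstream share of flanking peaks was 61.0%.

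Parent genes numbered 3961, of which 2482 were protein-coding. That is 11.3% of 21938 protein-coding genes, against 10.3% in the pool D list and 16.3% in the pool C list. One flanking peak was assigned to 1972 of them and at least 2 to 510 (2.32%; 2.15% of genes in pool D and 4.73% in pool C). Downstream peaks alone were found at 1571 protein-coding parents, upstream alone at 720 and both at 191. Protein-coding genes were parents of 72.3% of downstream and 55.3% of upstream flanking peaks. Other parents were mainly lincRNA genes (460 peaks), processed pseudogenes (369) and antisense genes (222). Peaks of antisense parents were 35.6% downstream, the opposite lean to the 66.9% of protein-coding parents.

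A start-site peak was present at the parent gene for 67.1% of flanking peaks, 69.8% in pool D and 70.1% in pool C. For peaks with a protein-coding parent it was 89.0%, and for those with another parent 25.2%. Counted by gene, 87.1% of protein-coding parents had one, where 65.5% of all protein-coding genes did. Flanking peaks of protein-coding genes thus mostly accompanied a marked start. Of these peaks 33.5% adjoined a start-site peak by position, so part of this share follows from the adjoining peaks. The share for standalone peaks alone is not given here. Protein-coding parents had a median of 4 start sites and a length of 35.2 kb, against 3 and 17.4 kb over all protein-coding genes. Longer genes with more starts have more sequence in the 1 to 10 kb range, and the part of this in the counts below was not tested.

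The parents with most flanking peaks were the transcription regulator genes Tcf4, Nfix, Bcor and Zeb2, and Schip1. Tcf4, a basic helix-loop-helix factor with 58 annotated start sites, had 15 (10 downstream, 5 upstream), against 10 in the pool D list and 22 in the pool C list. Their widths were 224 to 1795 bp, and 3 adjoined a start-site peak. Nfix, a nuclear factor I gene, had 9 (6 in pool D, 7 in pool C). Several of its upstream peaks contained a RefSeq Nfix start that GENCODE does not list, a curated one at chr8:84779572-84780817. Bcor, a BCL6 corepressor gene, had 8 (7 in pool D, 8 in pool C), and they were the CpG-richest of these sets, with a median ratio of 0.740 against 0.378 for Tcf4. Schip1 had 8, of which 7 were upstream of one of its starts (5 in pool D, 11 in pool C). Zeb2, a zinc finger repressor gene, had 7, all downstream (3 in pool D, 8 in pool C). Pool C held more than pool D at all 5 genes, as it did over the genome. The counts rested on internal starts and on peak splitting: with gene 5′ ends only they were 1 for Tcf4, 2 for Nfix, 3 for Bcor, 2 for Schip1 and 0 for Zeb2, and with peaks joined across 1 kb 7, 3, 5, 3 and 3. With −log10 q of at least 5, Tcf4 had 7 and Schip1 3.

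**Figure D4:**
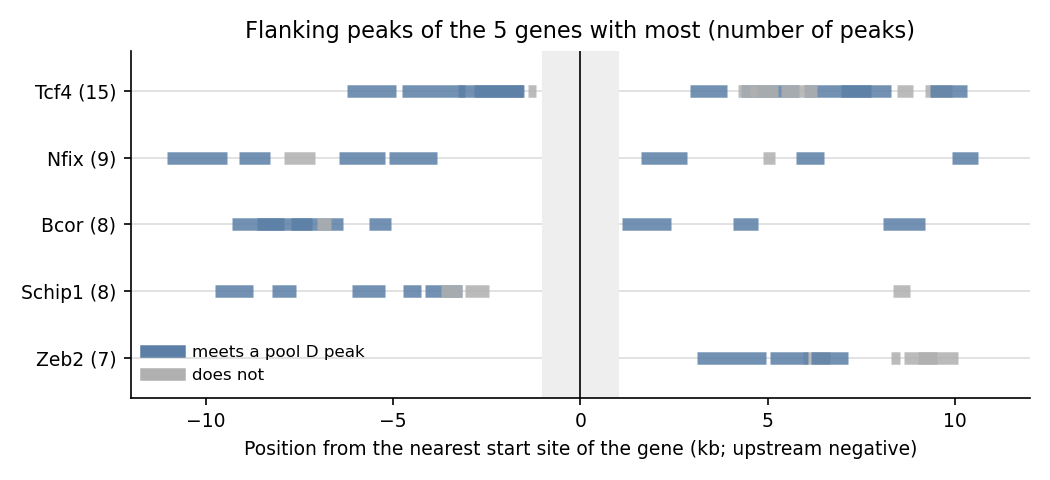
Flanking peaks of the 5 protein-coding genes with most, drawn to scale in kb from the nearest of the gene's own start sites (upstream negative). Peaks beside different starts of a gene share its row and can overlap; blue peaks met a pool D peak and grey ones did not. Zeb2 has peaks on the downstream side only, and Schip1 has 7 of 8 upstream.

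Genes of neurons, astrocytes, oligodendrocytes and endothelium were parents more often than protein-coding genes as a whole in all 3 lists. Of 23 excitatory neuron genes 16 had a flanking peak (17 in pool D, 20 in pool C), of 26 pan-neuronal genes 14 (11 and 18), of 26 interneuron genes 12 (9 and 13) and of 25 genes of hippocampal fields 11 (12 and 14). Of 22 astrocyte genes 14 did (14 and 14) and of 24 oligodendrocyte lineage genes 13 (13 and 17). The background over all protein-coding genes was 11.3%, 10.3% and 16.3% in the 3 lists. It includes genes without a start-site peak, whereas most genes of these lists had one. Of the 14369 protein-coding genes with a start-site peak, 2161 were parents in the replicated list. Of 28 forebrain transcription factor genes 15 were parents of 53 flanking peaks (20 and 20 genes), of 25 immediate early genes 11 (8 and 12), of 25 voltage-gated channel genes 8 (11 and 14) and of 21 endothelial genes 7 (8 and 13). Microglial genes were parents in 5 of 25 cases (2 and 8), housekeeping genes in 3 of 26 (2 and 5), liver and striated muscle genes in 1 of 25 (2 and 3) and Hox genes in 1 of 39 (0 and 1). These counts moved with the peak threshold and with splitting. With −log10 q of at least 5, excitatory genes numbered 11, astrocyte genes 7, oligodendrocyte genes 6 and forebrain factor genes 14, where all protein-coding genes gave 7.25%, and with joined peaks they numbered 7, 8, 5 and 13, where all gave 7.48%. With gene 5′ ends only, excitatory genes numbered 11 and astrocyte genes 8. The median gene had 1 flanking peak in the excitatory, pan-neuronal, astrocyte, oligodendrocyte and forebrain factor lists and 0 in the other 9 lists and over all protein-coding genes.

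**Figure D5:**
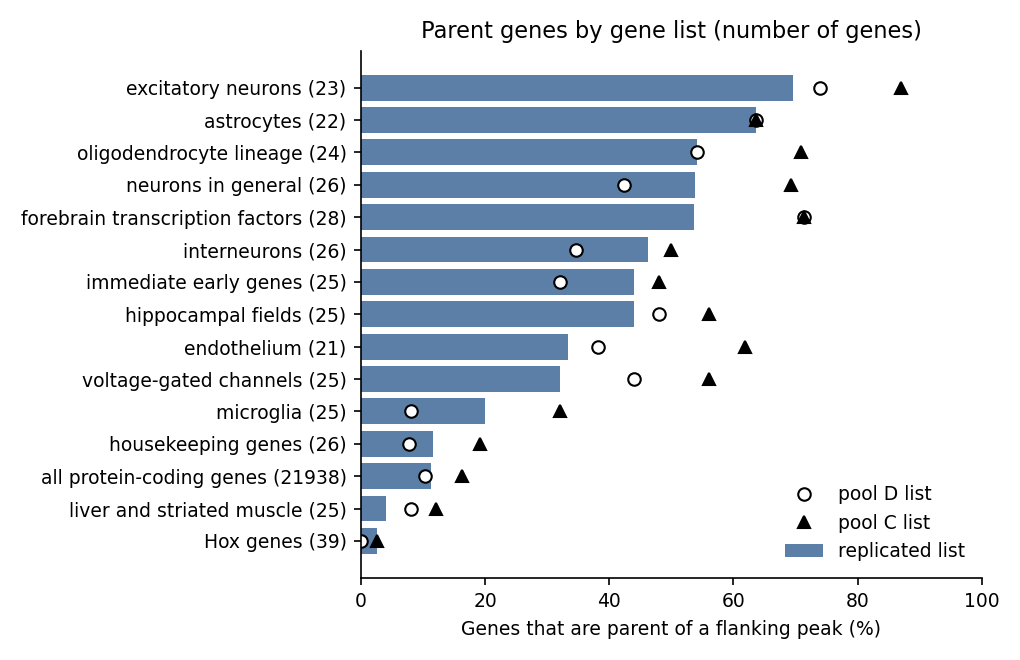
Percent of the genes of each list that were parent of at least 1 flanking peak, with the number of genes in brackets. Bars give the replicated list, circles the pool D list and triangles the pool C list; all protein-coding genes are at 11.3%, and the excitatory neuron list is highest at 69.6%.

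These lists also carried start-site peaks unequally. All 26 housekeeping genes had a start-site peak but 3 had a flanking peak, while all 22 astrocyte genes had the first and 14 the second. Of 25 microglial genes 11 had a start-site peak, of 39 Hox genes 6, and of 25 liver and muscle genes 3. Per Mb of sequence 1 to 10 kb from their own starts, forebrain factor genes had 74.3 flanking peaks, astrocyte genes 55.1, excitatory neuron genes 50.7, housekeeping genes 26.3 and all protein-coding genes 7.44. Pan-neuronal genes had 17.2 and channel genes 13.1 by this measure, nearer to the background than by the count of genes. The densities rested partly on a few genes. Of the 53 peaks of forebrain factor genes Tcf4 had 15, Nfix 9 and Zeb2 7, and of the 30 of astrocyte genes Slc1a2 had 7. The order of the lists without these genes was not tested.

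Among neuronal genes Neurod2, a factor of excitatory neurons, had 5 flanking peaks, with 5 in each pool list too, and its strongest lay 8540 bp upstream (1423 bp wide in pool D, 1649 bp in pool C). Mef2c, an activity-regulated factor, had 4 (4 in pool D, 6 in pool C), with the strongest 4326 bp upstream of a start (1203 and 1376 bp). Prox1, a dentate granule cell factor, had 2, both upstream, and Zbtb20, a factor of the hippocampal fields, had 3. The strongest Prox1 peak was 1009 and 1049 bp and the strongest Zbtb20 peak 703 and 820 bp. Nr2f2 had 3, Rbfox1 3 and Celf4 3, and in each of these 3 genes the strongest was upstream of a start. Scn2b, a sodium channel beta subunit gene, had 4 and Scn8a, the Nav1.6 channel gene, 3. Among immediate early genes Nr4a1 had 4, of which 3 upstream. The strongest, 613 bp wide, met a pool D peak of 594 bp and a pool C peak of 1289 bp. Nr4a2 had 2 downstream, the stronger 1577 and 1613 bp wide. At Nr4a2 and Prox1 the pool peaks met had nearly the same width. They differed widely at Nr4a1 and at Celf4, where they were 787 and 1513 bp wide. A wider pool peak may take in neighbouring flanking peaks, so these differences need not be changes in the width of the same peak.

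In glia and vessels, Slc1a2, the main astrocytic glutamate transporter, had 7 flanking peaks, of which 6 were upstream of one of its 11 starts. They were weak, with signal 2.32 to 3.72, and only 2 of the 7 met a pool D peak. With −log10 q of at least 5 none was left, and with joined peaks 1. Sox10, the oligodendrocyte lineage factor, had 2 downstream and Cnp, a myelin enzyme gene, 1 on each side. The stronger Sox10 peak, 1484 bp wide, met a pool D peak of 861 bp and a pool C peak of 3040 bp. Flt1, a vascular endothelial growth factor receptor gene, had 6, all downstream (3 in each pool list), and Slc2a1, the glucose transporter of the blood-brain barrier, 2. Among microglial genes Spi1 had 1 (525 and 638 bp) and Mertk 1, with no pool D peak there and 1311 bp in pool C. At Slc1a2 and Mertk most flanking peaks were thus outside the pool D list.

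In the remaining lists, the housekeeping gene Ywhaz had 2. The single Hox gene with a flanking peak, Hoxd12, had a 290 bp peak that no pool D peak met and that was 399 bp in pool C. Acta1, skeletal muscle actin, had a strong one in a later exon 1704 bp from its start (1569 and 1817 bp), without a start-site peak.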

How the data were processed

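The files analysed were 4 peak lists on mm10: 1 called on pool D, 1 on pool C, 1 on both pools and 1 of replicated peaks. The deposited columns hold a signal value per peak on the authors' caller scale, a −log10 q value, and a capped score that was not used. Signal ranked peaks within 1 list only. Peak caller and depth: not given in the sources used here. A replicated peak need not meet a peak of each pool list, and 177 flanking peaks (3.63%) had a deposited q above 0.05.

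Distances ran from the nearest peak edge to 132629 start positions of GENCODE M21, an annotation on the same build (GRCm38). Ties went to a protein-coding parent. Pool overlap needed 1 bp. RefSeq starts, sequence and tRNA genes came from the RefSeq annotation of GRCm38. All 360 names of the 14 gene lists matched. Named genes were the 5 strongest upstream and downstream peaks (also among standalone ones), the 5 strongest whose parent lacked a start-site peak, the 5 parents with most peaks, and 2 genes per list, of which a few are not reported here. Peaks, lists and rules were chosen with earlier results of these data known. With 1 tissue and 2 pools no test was run, and values are described beside their spread. The classification was tested on simulated data. Python 3.11.15, pandas 2.3.3, numpy 2.4.6, pysam 0.24.0 and samtools 1.23.1 were used. Alternatives were other lists, q limits, start sites, gaps, overlaps and joined peaks.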

Additional observations from a re-analysis of the deposited data

How the results depend on the processing

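No paired analysis was possible because the technical replicates of a pool share its single list. With 1 pool left out (its partner's list alone), flanking peaks numbered 4212 to 7914, the share downstream was 61.6% to 63.8%, the share adjoining 26.2% to 32.1%, the share downstream among standalone peaks 54.6% to 54.7%, the share with a marked parent 69.8% to 70.1% and the median CpG ratio 0.360 to 0.402. In each of these lists, and under every alternative run, more flanking peaks were downstream than upstream. Some shares were barely above the 51.6% of bases that lay downstream with all GENCODE starts. Joined peaks gave 52.3%, and standalone peaks gave 52.1% with −log10 q of at least 5 and 51.9% with a gap of 2 kb. The share of bases was not recomputed for the other sets of start sites.

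With −log10 q of at least 5, 3010 flanking peaks were left, 57.5% downstream, 19.1% adjoining (17.9 points more downstream than upstream) and 52.1% downstream among standalone peaks. Then 87.4% met pool D, 99.7% met pool C, 58.8% had a marked parent, the CpG ratio was 0.478 and 85 list genes had a flanking peak, against 128. With peaks joined across 1 kb, the downstream share was 52.3%, marked parents 53.9%, the CpG ratio 0.471 and list genes 72, and no adjoining share could be given. In the list on both pools, these were 62.8% downstream, 54.8% among standalone, 46.7% in pool D, 70.6% with a marked parent and a ratio of 0.369.

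With gene 5′ ends only, the values were 62.5% downstream, 57.2% among standalone, an adjoining difference of 17.3 points, 69.9% in pool D, 96.1% in pool C, 56.7% with a marked parent and a ratio of 0.438. With protein-coding genes only, they were 64.3%, 54.5%, 30.5% adjoining, a difference of 29.6 points and 88.2% with a marked parent. With basic transcripts they were 62.6%, 54.8% among standalone and 63.3% with a marked parent. From the summit, 54.7% of standalone peaks were downstream, 66.7% of flanking peaks met pool D and 70.6% had a marked parent. Gaps of 500 bp and 2 kb gave 19.6% and 33.5% adjoining, and 55.0% and 51.9% downstream among standalone peaks, with a difference of 19.2 points at 500 bp. A reciprocal overlap of 50% gave 56.8% in pool D and 79.3% in pool C. Chosen after seeing the data, RefSeq starts added to GENCODE gave 53.9% downstream among standalone peaks and 61.9% with a marked parent, and leaving out peaks at tRNA genes gave 53.5% among standalone peaks. The cause of these moves was not tested, apart from joining, which by its construction merges adjoining peaks into start-site peaks. Depth is unknown, and its part in the difference between the pools was not tested.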
